A study of Mus musculus with 8 samples.

Results

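The 9 genes described here, Hmgb1, Hmgb2, Hmgb3, Hmga1, Hmga2, Hmgn1, Hmgn2, Hmgn3 and Hmgn5, encode high mobility group (HMG) proteins of chromatin. They were found by symbol among the 55536 genes of the deposited table, and each of the 9 symbols stood on 1 gene. The family was selected on values from these libraries, because Hmgb1 took 2 levels among them, so the Hmgb1 values are a description and carry no test. RNA came from posterior palatal shelves of mouse embryos at E14.5, dissected before elevation, with epithelium and mesenchyme together. The 4 control libraries were labelled Yapfl/fl;Tazfl/fl, that is, homozygous for floxed alleles of the Hippo pathway co-activator genes Yap1 and Wwtr1 (Taz). The 4 mutant libraries were labelled Yapfl/fl;Tazfl/fl;Col2Cre, so both groups carried the floxed alleles and the mutants alone carried the Cre, which the Col2 in its name ties to cartilage collagen regulatory sequence and not to the whole tissue. Nothing in the labels says that each library came from its own embryo, so any p-value measures the spread among these libraries, which may be partly technical.

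HMG proteins are abundant nuclear proteins that change how DNA bends and how tightly nucleosomes pack. HMGB proteins carry a pair of HMG boxes, which bind and bend DNA, and a tail of acidic residues; HMGA proteins bind the minor groove of AT-rich DNA through AT-hooks; HMGN proteins bind the nucleosome itself and counter compaction by linker histones. HMGB1 released from cells also acts as an alarm signal through receptors such as RAGE and TLR4, and Hmga2 is a classic embryonic gene kept in check by let-7 microRNAs.

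Each library had between 29025089 and 32437977 reads, as recovered from the table. Values below are normalised counts, reads per gene divided by 1 size factor per library, unless a sentence says otherwise. Yap1 had 9095, 9459, 10086 and 9800 normalised counts in controls 1 to 4 and 8745, 8229, 8221 and 8656 in mutants 1 to 4, and Wwtr1 averaged 4879 ± 352 in controls and 4007 ± 397 in mutants (SD, n = 4). All mutant libraries lay below all control libraries for Yap1 and not for Wwtr1, and neither was called by limma (adjusted p = 0.751 in each case). Transcripts of both labelled tissues were present, with the mesenchymal gene Prrx1 at 13904 normalised counts and the epithelial gene Epcam at 3334 in the control mean. Xist stood at 840.4 normalised counts in mutant 2 and between 0 and 17.4 in the other 7 libraries. The share of reads on Gm42418, a row that overlaps ribosomal RNA sequence, was 4.22% to 5.66% in controls and 1.56% to 2.48% in mutants. It thus separated the groups completely, and its part in any group difference below was not tested.

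Hmgb1 occurred at 2 separate levels. The controls 1 to 4 had 1403, 1398, 342 and 1375 normalised counts, and the mutants 1 to 4 had 363, 314, 310 and 344. Controls 1, 2 and 4 were therefore high, and control 3 fell among the 4 mutants. The lowest library of the upper level had 3.79 times the highest library of the lower level, while the libraries within the upper level differed by no more than 1.021 times and those within the lower level by no more than 1.17 times. The control mean of 1129 ± 525 (SD, n = 4) lies between the levels, where no library was, and the mutant mean was 333 ± 25.1 (SD, n = 4). The log2 difference, mutant minus control on log2(normalised count + 1), was -1.56, and -2.07 without control 3. The lowest count behind these values was 321 reads. Among the 13619 tested genes with a mean of at least 50, a largest gap between neighbouring libraries as wide as that of Hmgb1 (1.92 on the log2 scale) was found for 69 genes including Hmgb1 (0.51%), a description made after its values were seen.

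**Figure D1:**
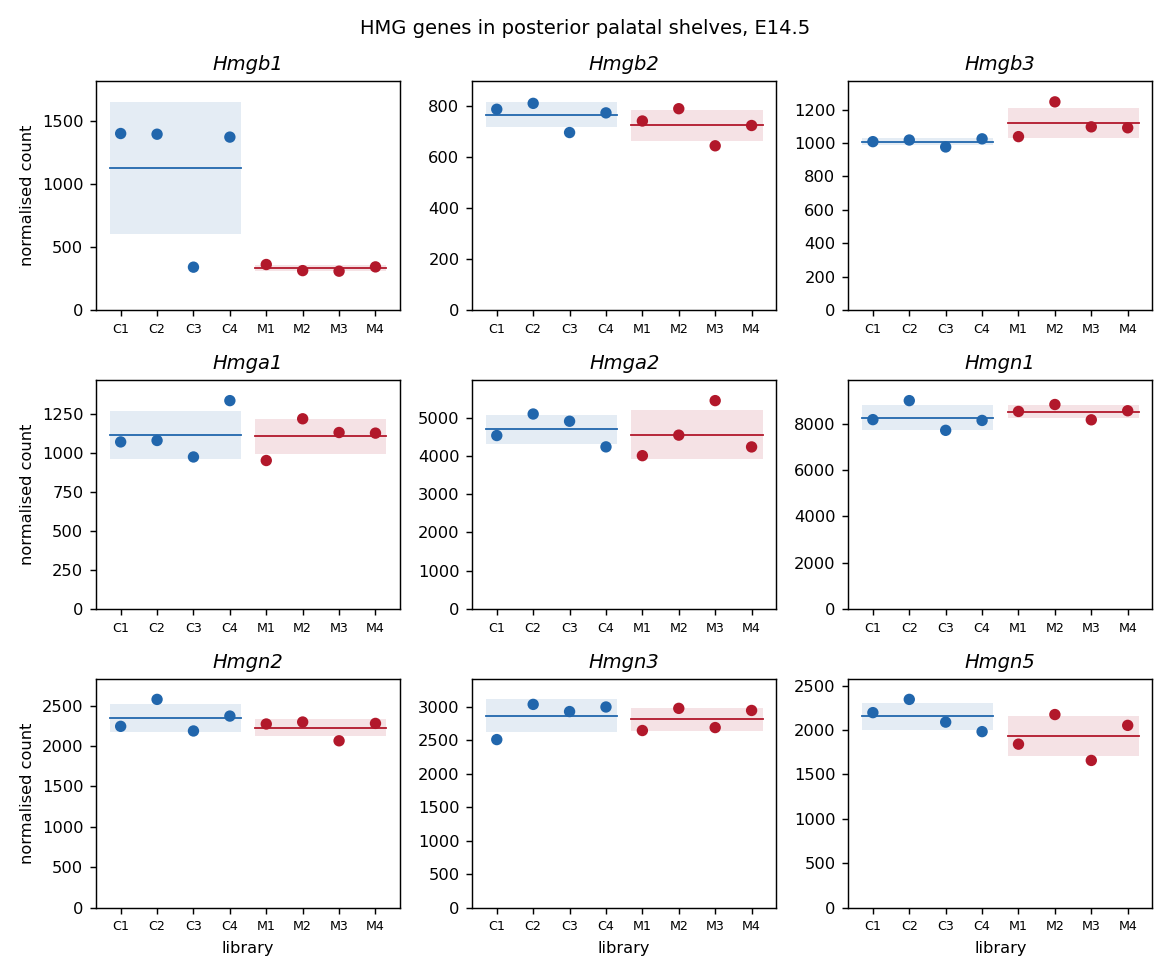
Normalised count (y axis, from 0, scale differing by panel) of each of the 9 HMG genes in each library (x axis; C1 to C4 controls in blue, M1 to M4 mutants in red), with the group mean as a line and 1 SD to either side as a band. Hmgb1 is at 1375 to 1403 in C1, C2 and C4 and at 310 to 363 in C3 and all mutants, whereas in the other 8 genes the highest library is 1.17 to 1.41 times the lowest.

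The first number in the sample titles, whose meaning the labels do not give, separates the levels only in part. Under number 2057, the 2 controls averaged 1386 normalised counts of Hmgb1 and the mutant had 344. Under number 3602, the control had 342 and the 2 mutants averaged 312. Numbers 3606 and 3621 hold 1 library each, the control at 1403 and the mutant at 363. The difference between genotypes was thus large within 1 number and small within the other.

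Hmgb1 lies on the minus strand of chromosome 5 from 149046702 to 149184489 in GRCm38 coordinates. Parts of its sequence recur elsewhere. In the GENCODE annotation, 132 other genes, 129 of them classed as pseudogenes, shared at least one 50-base window with an Hmgb1 transcript. Such windows made up 22.7% of all windows of Hmgb1 transcripts but 98.5% (590 of 599) of those in the coding sequence of the transcript Hmgb1-201, whose reads from that part can match several places. How such reads were counted is not known here, so the Hmgb1 level is uncertain to that extent.

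The stretch shown here codes for a short lysine-rich run and then part of the acidic tail. It spans coding bases 535 to 624 of Hmgb1-201 in exon 5 (chr5:149048761-149048850, minus strand, GRCm38). It was picked because the pseudogenes Gm46432 and Gm11645 together differ most from Hmgb1 there. It is given to show where these copies differ from Hmgb1. Bases in capitals differ from Hmgb1.
Hmgb1: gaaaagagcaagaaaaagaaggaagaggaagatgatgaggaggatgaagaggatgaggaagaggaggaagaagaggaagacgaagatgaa
Gm46432: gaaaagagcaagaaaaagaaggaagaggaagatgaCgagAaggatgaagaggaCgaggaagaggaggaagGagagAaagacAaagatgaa
Gm11645: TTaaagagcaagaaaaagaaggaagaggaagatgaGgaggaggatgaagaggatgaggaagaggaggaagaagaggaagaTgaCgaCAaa
Hmgb1-ps7: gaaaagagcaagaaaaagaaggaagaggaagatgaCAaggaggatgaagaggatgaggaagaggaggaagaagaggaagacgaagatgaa
Gm5518: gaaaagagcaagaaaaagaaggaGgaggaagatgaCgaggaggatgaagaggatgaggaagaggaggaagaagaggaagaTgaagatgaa
Over these 90 bases Gm46432 had 6 differences, Gm11645 had 7, Gm5518 had 3 and Hmgb1-ps7 had 2. Over the whole aligned coding part, 96.2% of bases were identical in Gm46432 (613 of 637), 95.4% in Gm11645 (604 of 633), 98.6% in Hmgb1-ps7 (639 of 648) and 99.2% in Gm5518 (640 of 645). Gm21596, with 99.8% (647 of 648), had no difference in the stretch.

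Of the 132 genes, 3 had a mean of at least 50 normalised counts, and none of the others exceeded a mean of 22.5. The 3 were the phosphatase gene Ppm1e and the processed pseudogenes Gm46432 and Gm11645, and these pseudogenes were singled out after their values had been seen. Gm46432 (chr13:84281179-84281816, listed as AC154335.2 in the deposited table) had 135, 225, 351 and 163 normalised counts in controls 1 to 4 and 386, 399, 424 and 391 in mutants 1 to 4. Gm11645 (chr2:143506411-143507059) had 125, 170, 340 and 84.5 in the controls and 311, 345, 300.1 and 318 in the mutants. Both pseudogenes were therefore low in the 3 libraries where Hmgb1 was high, and control 3 again lay with or near the mutants.

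The 2 pseudogenes together had 260, 394, 691 and 248 normalised counts in controls 1 to 4 and 697 to 744 in the mutants. Adding them to Hmgb1 gave 1663, 1792, 1032 and 1622 in controls 1 to 4 and 1033 to 1060 in mutants, so the 2 levels remained in the sum, closer together. All 132 genes and Hmgb1 summed to 2616, 2783, 1893 and 2613 in the controls and to 1861 to 1972 in the mutants. That sum includes Ppm1e, not classed as a pseudogene, with 450 ± 54.5 in controls and 353 ± 74.1 in mutants (SD, n = 4). The 129 genes of low mean summed to 456 to 547 in all 8 libraries, without that order. The closest copies were among them, with means of 2.01 for Gm21596, 20.6 for Gm5518 and 17.7 for Hmgb1-ps7. The rows named as copies of Hmgb1 had at most 23.6 normalised counts in any library. Whether reads moved between Hmgb1 and its copies was not tested.

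**Figure D2:**
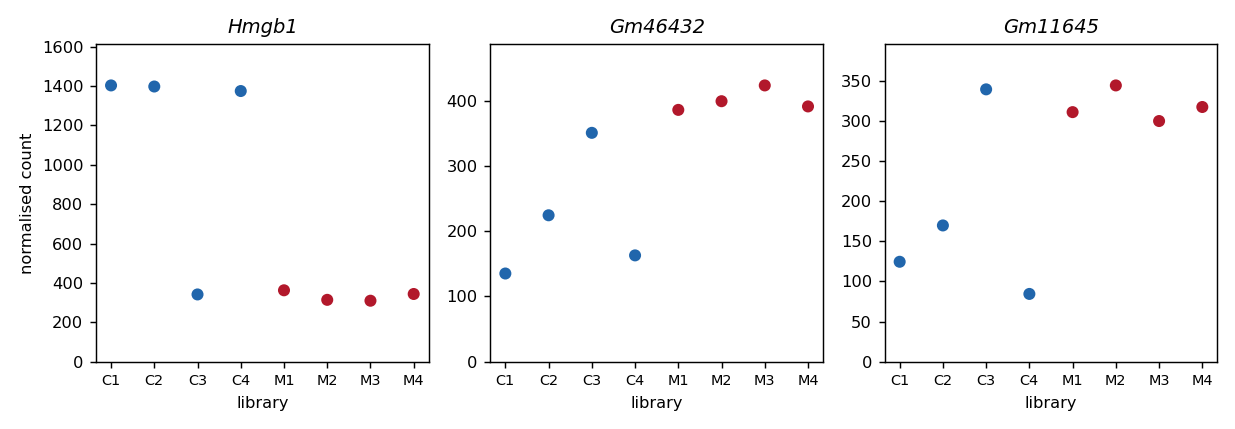
Normalised count (y axis, from 0, scale differing by panel) of Hmgb1 and of the processed pseudogenes Gm46432 and Gm11645 in each library (x axis; C1 to C4 controls in blue, M1 to M4 mutants in red). C1, C2 and C4 are highest for Hmgb1 (1375 to 1403) and lowest for Gm46432 (135 to 225) and Gm11645 (84.5 to 170).

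The genes whose log2(normalised count + 1) followed Hmgb1 most closely over the 8 libraries, among 12796 genes that averaged at least 50 and are not predicted genes, were Phex (Pearson r = 0.993), Entpd3 (0.98), Cgref1 (0.966), Gulp1 (0.965) and Pcgf1 (0.964). Such r values mostly restate which libraries belong to which level, and the 8 libraries that make them may share technical effects. Phex, on chromosome X, encodes an endopeptidase of bone-forming cells needed for phosphate balance; it had 277, 267, 59.5 and 330.0 normalised counts in controls 1 to 4 and 68.1, 61.5, 63.7 and 57.7 in mutants 1 to 4. Phex thus had the same 2 levels with the same libraries in each. Entpd3, an enzyme that hydrolyses extracellular nucleotides, had 332, 260, 115 and 317 in the controls and 114 to 142 in the mutants. Cgref1, a cell growth regulator with calcium-binding EF-hands, had 289, 230.4, 65.7 and 225 in the controls and 43.4 to 82.7 in the mutants. Gulp1, an engulfment adaptor, and Pcgf1, a Polycomb group RING finger protein, were highest in the same 3 libraries over a smaller range: Gulp1 ran from 907 to 935 in controls 1, 2 and 4 and from 651 to 752 in the other 5 libraries, and Pcgf1 from 390 to 410.0 and from 258 to 304.

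Opposite to Hmgb1 were Anapc11 (r = -0.975), a RING subunit of the anaphase-promoting complex, Epn2 (-0.964), an endocytic adaptor, Egln1 (-0.956), an oxygen-sensing prolyl hydroxylase, Marcksl1 (-0.956), an actin regulator, and Igdcc3 (-0.95). Their differences were small except for Igdcc3, which had 80.9, 86.9, 161 and 81.5 normalised counts in controls 1 to 4 and 138 to 231 in the mutants. Anapc11 had 2528, 2517, 2806 and 2517 in controls 1 to 4 and 2745 to 2841 in the mutants. All 10 genes were chosen for their likeness to Hmgb1, so the match of libraries is no separate result.

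**Figure D3:**
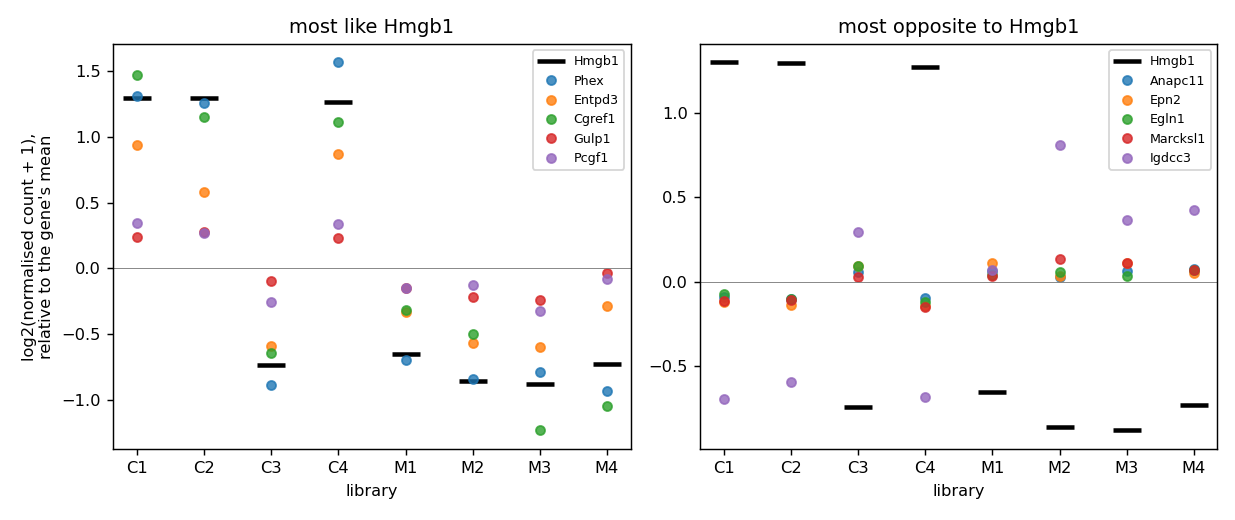
Level of Hmgb1 (black bars) and of the 5 genes most like it (left) or most opposite to it (right) in each library (x axis; C1 to C4 controls, M1 to M4 mutants), as log2(normalised count + 1) minus the gene's mean over the 8 libraries (y axis). On the left, C3 lies with the mutants for Phex as for Hmgb1 (59.5 against 57.7 to 68.1 normalised counts); on the right, only Igdcc3 spans a range similar to that of the genes on the left.

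Osteogenic marker genes moved with the 2 levels in part. Their list includes Phex, picked above for its likeness to Hmgb1, so that part of the match is no separate result. All 10 tested genes of the 11 in that list had lower means in mutants, none passed limma's test (smallest adjusted p = 0.267), their median log2 difference was -1.26, and Bglap was at 0 in every library. The summed level of the list was 24464 to 46007 normalised counts in controls and 6844 to 23345 in mutants. Ibsp, bone sialoprotein, had 23279, 19064, 6533 and 17749 normalised counts in controls 1 to 4 and 2435, 727, 1486 and 5680 in mutants 1 to 4. Control 3 was the lowest control here as well, but unlike for Hmgb1 it lay above all mutants. All mutants were below all controls in 1.91% of tested genes. The mean log2 level of the list, relative to the control mean, was 0.68, -0.32, -0.48 and 0.13 in controls 1 to 4 and -0.70, -1.94, -1.57 and -0.62 in mutants 1 to 4. Controls 2 and 3 were close to one another on that scale while their Hmgb1 counts were 1398 and 342. In the summed level they were apart, at 39576 in control 2 and 24464 in control 3. In whole tissue, fewer cells of a type and less RNA per cell cannot be told apart, and the part of these cells in the Hmgb1 levels was not tested.

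Of the neighbours of Hmgb1, only Gm8615 separated the libraries as Hmgb1 did, and in the opposite direction. The share of all tested genes with such a separation is not given here, so this is a description only. Neighbours were the 14 tested genes whose lower coordinate lies within 1000000 bases of the lower coordinate of Hmgb1. None passed limma's test over all genes. Their log2 differences ran from -1.68 for Gm15411, which had at most 26.6 normalised counts, to 0.47 for Gm8615. Gm8615 (chr5:149155108-149156209) lies within the annotated span of Hmgb1; its counts were 55.4, 66.4, 84.1 and 70.7 in controls 1 to 4 and 81.9 to 108 in mutants. Controls 1, 2 and 4 were thus below control 3 and all mutants, over a smaller range than in Hmgb1 (Pearson r with Hmgb1 = -0.858 over the 8 libraries). In none of the other 13 genes were controls 1, 2 and 4 all above or all below the other 5 libraries. Uspl1, a SUMO protease gene, overlaps the upper end of that span, where Hmgb1 on the minus strand begins. Uspl1 had 1604 to 1791 in controls and 1605 to 1786 in mutants. Katnal1, a microtubule-severing katanin subunit, had 785 to 1020 in controls and 834 to 939 in mutants (log2 difference 0.01 ± 0.10, SE; adjusted p = 0.993, limma).

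The other members are read against the whole table, where limma called 4 of 16647 tested genes (0.0240%) at an adjusted p under 0.05. Of the 8 members besides Hmgb1, none was called by limma, edgeR or DESeq2, and none had an unadjusted limma p under 0.05, which 1093 of all genes had. Their log2 differences lay between -0.16 and 0.15, and 6 of 8 had lower mean log2 levels in mutants, where 50% of all tested genes did. The median over the 9 members was -0.05, beside -1e-04 over all genes. Every mutant library lay above every control library for 1 of the 9 members, Hmgb3, a pattern that 1.86% of tested genes showed; the opposite pattern was shown by 0 of 9 members and 1.91% of tested genes. The 8 genes together summed to 23218 ± 1183 normalised counts in controls and 23018 ± 840 in mutants (SD, n = 4).

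**Figure D4:**
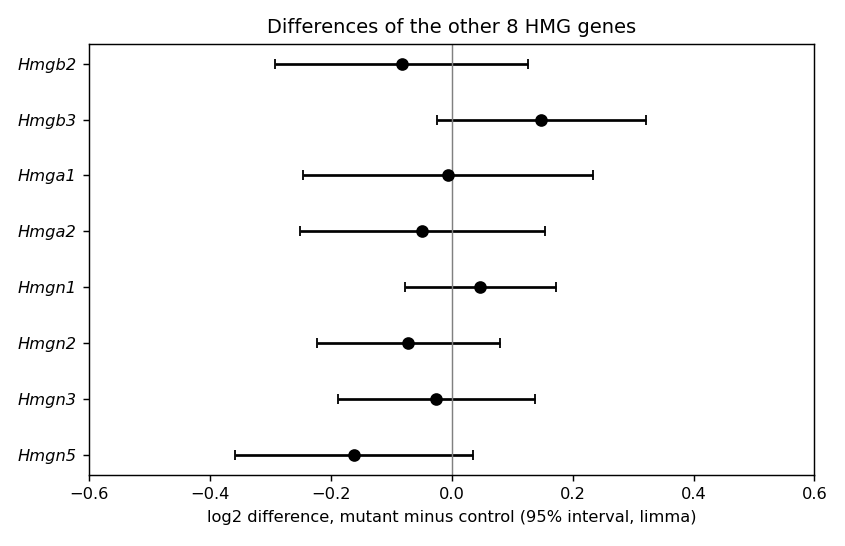
Log2 difference, mutant minus control, on log2(normalised count + 1) (x axis) for the 8 HMG genes other than Hmgb1 (y axis); points are limma estimates over 4 control and 4 mutant libraries and bars their 95% intervals. All intervals include 0, from Hmgn5 at -0.16 to Hmgb3 at 0.15, and the widest limits are -0.36 and 0.32.

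Of the HMGB genes, Hmgb2 (chr8:57511907-57515999) encodes the close relative of HMGB1 that is most abundant in dividing cells. It had 789, 812, 698 and 775 normalised counts in controls 1 to 4 and 743, 791, 646 and 725 in mutants 1 to 4. The groups overlapped, and the log2 difference was -0.08 ± 0.10 (SE; adjusted p = 0.893, limma), with a 95% interval from 0.817-fold to 1.09-fold. In the 3 libraries with high Hmgb1, Hmgb2 ran from 775 to 812, in the upper part of a range of 646 to 812 over all libraries. Of the other libraries, only mutant 2 (791) lay in that span. The Pearson r of Hmgb2 with Hmgb1 was 0.661 over the 8 libraries, a description only.

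Hmgb3 (chrX:71555918-71560676), known from blood stem cells and embryonic tissues, had 1008, 1018, 977 and 1025 normalised counts in controls 1 to 4 and 1039, 1247, 1097 and 1091 in mutants 1 to 4. All mutants were above all controls, with mutant 1 and control 4 closest to one another. The log2 difference of 0.15 ± 0.08 (SE) did not pass limma's test (adjusted p = 0.773, and 0.674 to 0.975 when 1 library was left out). It was 0.09 without mutant 2, which held the highest Hmgb3 value and was the library with Xist. The interval ran from 0.983-fold to 1.25-fold.

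Both HMGA genes had overlapping groups. Hmga1 (chr17:27556620-27563674) had 1072, 1082, 976 and 1338 normalised counts in controls 1 to 4 and 953, 1221, 1133 and 1129 in mutants 1 to 4, a log2 difference of -0.01 ± 0.11 (SE; adjusted p = 0.995, limma). With the first title number as a block its difference was 0.089, and without control 4 it was 0.084, both of the opposite sign. More than any other member, Hmga1 shares sequence: 55.0% of the 50-base windows of its transcripts also occurred in other genes, so its level is uncertain to that extent.

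Hmga2 (chr10:120361275-120476469), the family's embryonic member and a factor in body size, was the second most counted of the 9 genes before correction for length. It had 4530, 5092, 4903 and 4234 normalised counts in controls 1 to 4 and 4004, 4540, 5442 and 4232 in mutants 1 to 4. The mutants spanned more than the controls and enclosed them, and the log2 difference was -0.05 ± 0.09 (SE; adjusted p = 0.946, limma). The list around LIN28, let-7 and Hmga2 had 13 tested genes of 14, none called and a median log2 difference of -0.01. Lin28b, which blocks let-7 maturation, had 28.3 to 85.2 normalised counts in controls and 30.3 to 79.1 in mutants, and Lin28a did not exceed 3.9 in any library. The mRNA-binding genes of that list were high in both groups, with Igf2bp2 at 8354 ± 204 and 7811 ± 473 (adjusted p = 0.774, limma) and Igf2bp1 at 4285 and 4457 in control and mutant means.

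The HMGN genes were the most strongly counted of the family per length. Hmgn1 (chr16:96120618-96127729) had 8192, 9014, 7729 and 8157 normalised counts in controls 1 to 4 and 8546, 8846, 8184 and 8576 in mutants 1 to 4. It varied least of the members, with a coefficient of variation of 5.0% over the 8 libraries, and its log2 difference was 0.05 ± 0.06 (SE; adjusted p = 0.899, limma). Hmgn2 (chr4:133964738-133968650) had 2244, 2577, 2186 and 2371 in controls 1 to 4 and 2273, 2297, 2065 and 2280 in mutants 1 to 4, with -0.07 ± 0.07 (SE; adjusted p = 0.878, limma). For both genes the highest library was control 2.

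Hmgn3 (chr9:83109948-83146685), which binds thyroid hormone receptor, had 2509, 3034, 2927 and 2995 normalised counts in controls 1 to 4 and 2644, 2975, 2688 and 2943 in mutants 1 to 4. Its log2 difference was -0.03 ± 0.07 (SE; adjusted p = 0.969, limma), and control 1 was the lowest library. Hmgn5 (chrX:109004534-109013404), the HMGN protein with a long acidic tail, had 2196, 2345, 2089 and 1982 in controls 1 to 4 and 1841, 2174, 1658 and 2052 in mutants 1 to 4. It had the lowest difference of the 8, -0.16 ± 0.09 (SE, adjusted p = 0.774, limma, 95% interval 0.78-fold to 1.025-fold). Its groups overlapped because mutants 2 and 4 lay among the controls. The difference was -0.22 without mutant 2, the library with Xist and the highest mutant for this X-linked gene, and -0.09 without mutant 3.

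Divided by the length of annotated exons, the normalised counts per kb put Hmgn1 first with 2568 ± 167 in controls (SD, n = 4), then Hmgn3 with 1534 ± 130, Hmgn5 with 1113 ± 80.1, Hmgn2 with 766 ± 56.6, Hmga2 with 693 ± 56.6, Hmga1 with 526 ± 72.8, Hmgb3 with 451 ± 9.6, Hmgb2 with 256 ± 16.5 and Hmgb1 with 225 ± 105. Over the 8 libraries, the ranges of Hmgn1 and Hmgn3, of Hmgn3 and Hmgn5, of Hmgn5 and Hmgn2 and of Hmgb3 and Hmgb2 did not overlap, while Hmgn2 and Hmga2, Hmga2 and Hmga1, Hmga1 and Hmgb3, and Hmgb2 and Hmgb1 did. Hmgb1 covered 61.7 to 279 normalised counts per kb. It stood just above the Hmgb2 range (215 to 271) in controls 1, 2 and 4, at 279, 278 and 274, and below it in the other 5 libraries. Its last place thus rests on a control mean that lies between its levels. The length used for Hmgb1 is the union of all annotated exons, 5023 bases, which is longer than Hmgb1-201 with 2838 bases.

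**Figure D5:**
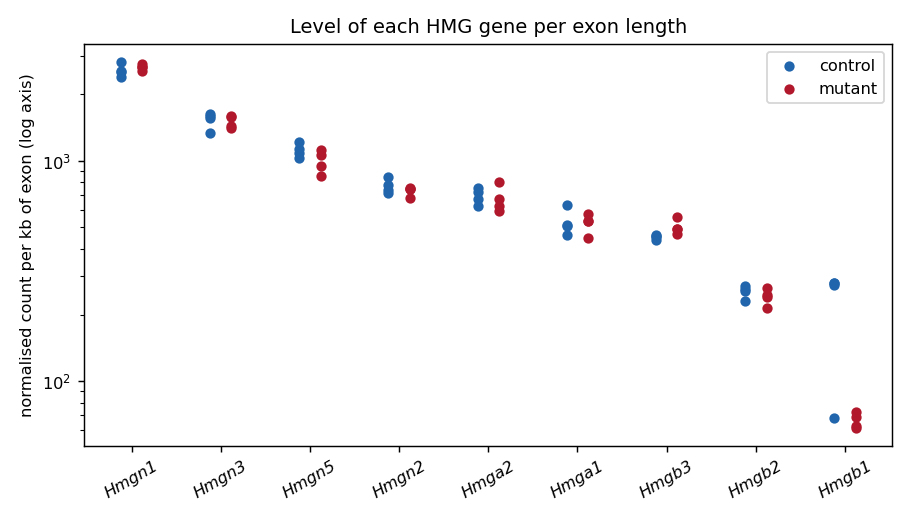
Normalised count per kb of annotated exon (y axis, log axis) of the 9 HMG genes in order of the control mean (x axis), with 1 point per library (controls blue, mutants red). The 3 highest genes are Hmgn1, Hmgn3 and Hmgn5, and Hmgb1 is the only one whose controls split, at 68.0 for control 3 and 274 to 279 for the others.

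Genes that work with HMG proteins were taken as lists. Of the 17 other HMG-box chromatin genes, 16 were tested, none was called, and the median log2 difference was -0.03; Hmgxb4, a partner in chromatin remodelling, averaged 2625 ± 189 normalised counts in the control libraries and 2372 ± 97.9 in the mutants (adjusted p = 0.754, limma). Of the 17 sequence-specific HMG-box factors, all tested, none was called and the median was -0.01. In that list Tcf7l1, a Wnt pathway repressor, lay lower in all mutants (6139 ± 243 and 5590 ± 149 normalised counts; adjusted p = 0.754, limma), while Sox2, a factor of oral epithelium, averaged 1632 ± 317 and 2199 ± 547 with overlap.

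Linker histones compete with HMG proteins for the nucleosome. All 7 of the list were tested, none was called, and 6 were lower in the mutant mean, the median log2 difference being -0.86. Hist1h1e had 190, 234, 178 and 208 normalised counts in controls 1 to 4 and 87.5, 104, 104 and 87.0 in mutants 1 to 4. These did not overlap (log2 difference -1.07 ± 0.19, SE, adjusted p = 0.267, limma). In the other direction, H1fx lay higher in all mutants, at 5849 ± 419 and 6305 ± 196.5 (adjusted p = 0.773, limma). Of all tested genes, 1.91% were lower and 1.86% higher without overlap. The replication-independent H1f0 had 13881 and 13540 in control and mutant means (adjusted p = 0.941, limma). The summed level of the list was 19319 to 21473 in controls and 19185 to 21451 in mutants. The share of reads on Gm42418 given above moved with the groups, and its part in the histone values was not tested either.

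None of the 8 replacement core histones and none of the 20 histone chaperones was called, with medians of 0.06 and 0.00. H2afv lay higher in all mutants (3986 ± 92.0 and 4482 ± 164 normalised counts; adjusted p = 0.754, limma). Anp32b, an acidic histone chaperone, averaged 13410 ± 950 and 11753 ± 524 with overlap (adjusted p = 0.754, limma). Of the 16 receptors and extracellular partners of HMGB1, 15 were in the table and 13 tested, none was called and the median was 0.10. Thbd, thrombomodulin, which binds extracellular HMGB1, had 826, 794, 900 and 729 normalised counts in controls 1 to 4 and 639, 489, 630 and 549 in mutants 1 to 4 (log2 difference -0.50 ± 0.11, SE; adjusted p = 0.654, limma). Tlr4 had 36.3 to 70.3 in controls and 70.4 to 108 in mutants (adjusted p = 0.754, limma), and Ager, which encodes RAGE, had 77.1 to 154 and 109 to 204.

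Proliferation genes, with which Hmgb2 and Hmga genes are often counted, differed little. The 20 genes of DNA replication had a median log2 difference of 0.03 and the 24 genes of G2 and mitosis one of -0.01, with no gene called in either. Of the 10 cell type marker lists none held a called gene; besides osteogenic cells, the median was -0.62 for chondrogenic cells (10 of 11 with lower means), -0.21 for endothelium (10 of 12 lower), 0.22 for epithelium and periderm (19 of 20 higher), 0.29 for erythroid cells (11 of 13 higher), 0.45 for Schwann cells and neural crest glia (8 of 9 higher), and -0.01 for palatal mesenchyme, 0.03 for skeletal muscle, 0.05 for macrophages and -0.12 for neurons. The neuronal list was lowest in control 3, at -1.09 on the log2 scale relative to the control mean, beside -0.43 to 0.76 in mutants. The part of any of these cell types in the values of the HMG genes was not tested.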

How the data were processed

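RNA-seq libraries from 8 posterior palatal shelf samples, 4 control and 4 mutant by genotype label, were analysed; replicate numbers follow sample order and pair nothing. The signal values were deposited by the authors as normalised counts, with STAR 2.7.2 and DESeq2 named in the submitters' processing notes; no counting tool, strand setting, annotation or build is named there. Gene positions equalled GENCODE vM21 (GRCm38) for 95.2% of shared IDs. Dividing by a step per library gave whole reads within 0.06 reads for 100.0% of scored values and totals of 29025089 to 32437977 reads. The log2 values, deposited by the authors as variance-stabilised values, served 1 alternative.

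Genes with at least 10 normalised counts in at least 4 of 8 libraries (16647) entered a limma fit (version 3.58.1, R 4.3.3) of log2(normalised count + 1) on genotype alone, with trended variances, two-sided, and Benjamini-Hochberg adjustment over all of them at 0.05. Fold differences on this scale understate those of low genes. Alternatives were count tests on the recovered reads (DESeq2 1.42.0, edgeR 4.0.16), other pseudocounts (0.5 and 8), filters and scalings, the stabilised values, the first title number as a block, and leaving out each library. The limma script was tested on simulated data.

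Shared windows were exact 50-base matches between GENCODE transcripts of different genes, and printed sequences are from those transcripts. Genes named were the members; their named copies; Yap1 and Wwtr1; up to 4 genes of each list with the smallest p, of which not all are given; the 5 most and 5 least like Hmgb1; the tested neighbours within 1000000 bases; and Xist. Markers at 0, single list members such as Ager, Lin28a, Lin28b, Igf2bp1, H1f0, H1fx, Prrx1 and Epcam, and the pseudogene pair were named after their values were seen. A result on 1 related gene is not reported here. The members and lists were chosen with earlier results of these data known. Matplotlib 3.10.9 in Python 3.11.15 drew the figures.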

Additional observations from a re-analysis of the deposited data

Results flagged for a closer look

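Control 3 stood far from the other controls for Hmgb1, with 342 normalised counts beside 1375 to 1403; its gap to the next library was 0.985 of the range of the controls on the log2 scale. The family was selected on these Hmgb1 values, so this gap is a description and no limit is set against it. Among the other 8 members, examined in each group in the same way, 1 library passed the 95% limit for 4 libraries, where chance flags about 1 in 20 groups. This was mutant 3 for Hmgn2, with 2065 normalised counts beside 2273 to 2297 in the other mutants, a gap of 0.9 of the range of the mutants. Mutant 3 was also the lowest mutant for Hmgb1, Hmgb2, Hmgn1 and Hmgn5 and the highest for Hmga2.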

How the results depend on the processing

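The number of genes called over the whole table, 4 in limma, was 28 with DESeq2 (25 lower and 3 higher) and 5 with edgeR on the recovered reads, and 0 to 11 when 1 library was left out: 0 without control 2, control 4 or mutant 3, 11 without control 3 and 8 without mutant 4. With the first title number as a replicate block, 6 genes were called; libraries that share it share only a number, since its meaning is not given. None of the other 8 members, Hmgb1 being left untested, was called in any of the 18 settings. The log2 difference of Hmgb1 was -0.69 on the stabilised values, which compress differences, -1.07 with the replicate block and between -2.07 and -1.39 without 1 library. The median over the members ran from -0.069 to 0.0039 without 1 library. Directions near 0 reversed: Hmga1 was at 0.089 with the block and between -0.068 and 0.084 when 1 library was left out (above 0 without control 4 or mutant 1); Hmgn3 ran from -0.088 to 0.0039 (above 0 without control 2 or mutant 1) and Hmga2 from -0.137 to 0.0102 (above 0 without mutant 1). The cause was not tested. The members, which had at least 321 reads in every library, were limited in precision by 4 libraries a group.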
